A study of Mus musculus with 4 samples.

Results

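Metallothioneins were described here through 3 genes, Mt1, Mt2 and the transcription factor gene Mtf1, which were taken by gene symbol from the 19353 genes of a UMI count table of mouse muscle satellite cells (MuSCs). All 3 genes passed the filter on low counts, which left 7228 genes for testing. The genes were chosen with their values in the same comparison already known, so their levels and fold changes are given as a description, without a test.

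Metallothioneins are small, cysteine-rich proteins that bind zinc, copper and cadmium and buffer the free zinc of the cell. Their genes are switched on by Mtf1, a zinc-finger protein that senses free zinc and binds short DNA motifs called metal response elements (MREs) in their promoters, and also respond to glucocorticoids and oxidative stress. In skeletal muscle, metallothionein RNA is known to rise in wasting.

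The MuSCs came from the plantaris muscle of Pax7 CreERT2+::Rosa YFP mice, in which a tamoxifen-activated Cre recombinase driven by Pax7 switches on yellow fluorescent protein (YFP). In the overloaded group (2 libraries), the distal tendons of gastrocnemius and soleus had been cut 4 days earlier (tenotomy), which shifts load onto the plantaris. In the sham group (2 libraries), the skin was opened and the tendons were left intact. Both groups carried the same alleles and received tamoxifen, and the age of the mice is not given in the sources used here. Each library was made by CEL-Seq2 from a tube of 100 cells sorted by YFP, a label that records Pax7-driven Cre activity in the past and not Pax7 at the time of sorting. CEL-Seq2 copies the 3′ end of each polyadenylated RNA and adds random bases to each copy, a unique molecular identifier (UMI), so that 1 UMI stands for 1 captured molecule whatever the length of the transcript. Whether libraries of the same group are from separate mice is not stated, nor whether a sham and an overloaded library share a mouse (elsewhere in the study the sham muscle was the contralateral one), so errors and p-values measure the spread between these libraries only, which may be technical.

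In all, 269683 and 260488 UMIs were counted in sham and 387955 and 483528 in overloaded. Per sorted cell, this was 2697 and 2605 UMIs in sham and 3880 and 4835 in overloaded. Levels are therefore given both as UMIs per tube and as CPM, in which each count was divided by the library's total of tested genes multiplied by its edgeR TMM factor (0.909 and 0.908 in sham, 1.08 and 1.12 in overloaded). Since a tube is a bulk sample, fewer cells with a given RNA and less of that RNA per cell cannot be told apart.

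The cell label was checked against known markers. Pax7 was counted in all 4 libraries, with 118 and 107 UMIs in sham and 108 and 137 in overloaded. In CPM, Pax7 went from 499 ± 20.4 to 279 ± 2.39 and fell by 0.84 on the log2 scale (adjusted p = 6.4e-04 by edgeR's quasi-likelihood test). All 10 satellite cell markers listed were detected and tested. Of 8 leukocyte markers, 6 (Lyz2, Adgre1, C1qa, Cd74, Tyrobp and Fcer1g) were at 0 in both sham libraries, and the summed UMIs of the list were 2 and 5 in sham and 55 and 110 in overloaded. Myofiber markers, led by Acta1, summed to 325 and 175 UMIs in sham and 1076 and 1273 in overloaded.

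Promoter windows of Mt1 and Mt2 are shown because both genes had nearly the same values below. Mtf1 is also known to act through MREs in metallothionein promoters. Both sequences are from RefSeq promoter windows on the plus strand of GRCm38.p6, chr8:94178839-94179088 for Mt1 and chr8:94172368-94172617 for Mt2. The Mt1 window is printed without its last bases, as chr8:94178839-94179081, which is 243 of its 250 bases. Capitals mark the MRE core, spelled TGCACNC or TGCGCNC and searched on both strands.
Mt1: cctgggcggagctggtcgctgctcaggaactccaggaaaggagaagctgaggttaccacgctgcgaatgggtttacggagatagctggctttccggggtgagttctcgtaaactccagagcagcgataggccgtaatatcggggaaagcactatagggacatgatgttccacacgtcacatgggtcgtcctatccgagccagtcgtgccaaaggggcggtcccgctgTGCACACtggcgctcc
Mt2: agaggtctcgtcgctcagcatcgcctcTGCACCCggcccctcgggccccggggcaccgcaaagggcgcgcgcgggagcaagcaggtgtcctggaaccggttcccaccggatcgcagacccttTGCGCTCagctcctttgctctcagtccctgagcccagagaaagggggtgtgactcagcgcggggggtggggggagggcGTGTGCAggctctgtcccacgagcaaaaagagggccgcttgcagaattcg

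The Mt1 window held 1 core, TGCACAC, at -23 to -17 from the RefSeq start. The Mt2 window held 3 cores. TGCACCC lay at -223 to -217, TGCGCTC at -128 to -122, and TGCACAC on the minus strand at -50 to -44, where it reads GTGTGCA in the line above. Among 32851 RefSeq windows, each searched over the 250 bases before the start, 21.4% held at least 1 of these cores and 1.26% held at least 3. The Mt2 window also held 1 match to the antioxidant response element core TGACNNNGC, at -79 to -71, which occurred in 10.2% of windows. A match is a description of the sequence, not a bound site. Each window ends at the RefSeq start used, and bases beyond that start were not searched. The numbers of cores are thus those of the windows, and do not compare the whole promoters of Mt1 and Mt2. No core was found in the window of Mtf1.

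In the GENCODE annotation of GRCm38, Mt2 (ENSMUSG00000031762) spans chr8:94172664-94173568 and Mt1 (ENSMUSG00000031765) spans chr8:94179082-94180327. Both genes have 3 exons, lie on the plus strand and are 5513 bases apart. Mtf1 (ENSMUSG00000028890) lies on another chromosome, at chr4:124802104-124849800, and has 12 exons. Of the 2 other genes of the family, Mt3, the brain form, was at 0 in 3 libraries and had 2 UMIs in overloaded 2. Mt4, the form of stratified epithelium, was not among the genes of the count table.

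Mt1 was counted with 623 and 657 UMIs in the sham libraries and 435 and 484 in the overloaded libraries. Both sham tubes thus held more Mt1 UMIs than either overloaded tube, although the overloaded tubes held more UMIs in all. In CPM, Mt1 was at 2712 and 2976 in sham and at 1131 and 980 in overloaded. The group means were 2844 ± 187 CPM in sham and 1056 ± 107 CPM in overloaded (mean ± SD, n = 2), a ratio of 2.69. The fitted difference was -1.43 on the log2 scale (SE 0.16), and the groups did not overlap.

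Mt2 was counted with 705 and 714 UMIs in the sham libraries and 503 and 512 in the overloaded libraries. The 2 tubes of each group lay within 9 UMIs of each other, and the groups did not overlap. In CPM, Mt2 was at 3069 and 3234 in sham and at 1308 and 1037 in overloaded. The means of 3152 ± 117 and 1172 ± 192 CPM (n = 2) gave a ratio of 2.69, the same as for Mt1, and the fitted difference was -1.43 (SE 0.17).

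Mtf1 lay far below both metallothioneins, with 9 and 6 UMIs in the sham libraries and 23 in each overloaded library. In CPM this was 39.2 and 27.2 in sham and 59.8 and 46.6 in overloaded, with means of 33.2 ± 8.48 and 53.2 ± 9.35 (n = 2). The groups did not overlap, but at these counts the fitted difference of 0.65 had an SE of 0.42. The direction was opposite to that of Mt1 and Mt2.

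**Figure D1:**
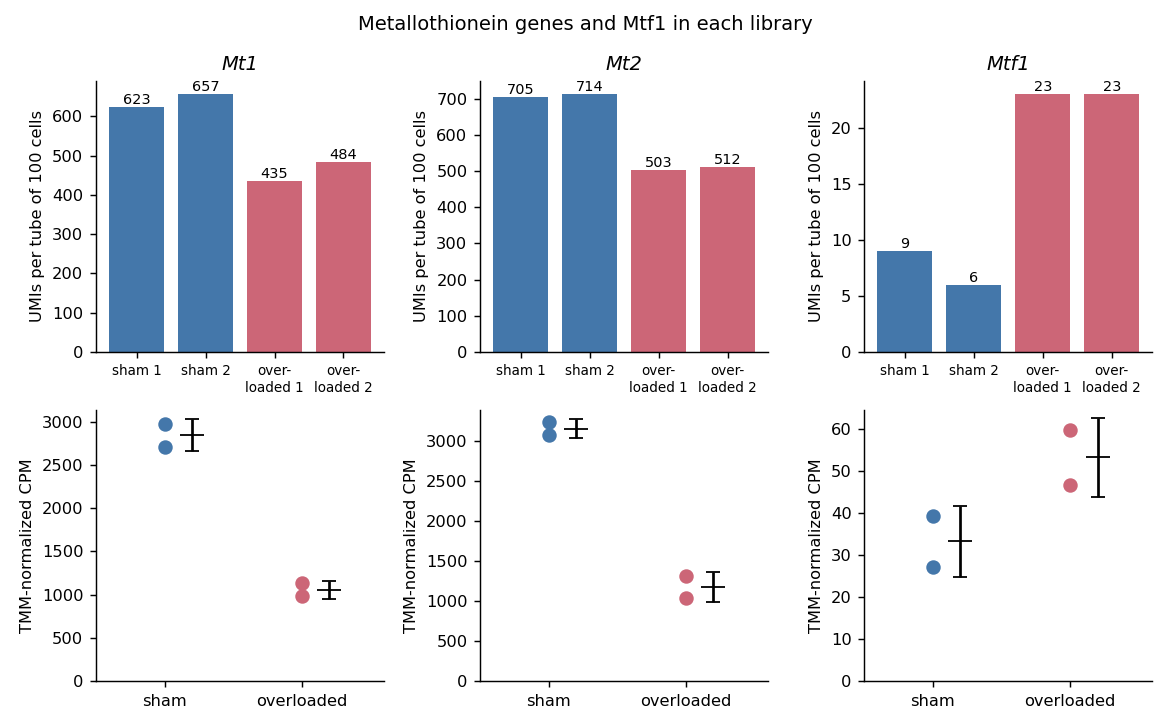
Levels of Mt1, Mt2 and Mtf1 in each of the 4 libraries, as bars of UMIs per tube (top) and as points of CPM (bottom), with the group mean and SD (n = 2) as black marks. Mt1 and Mt2 lie higher in both sham libraries than in either overloaded library, and Mtf1 lies lower.

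These separations must be read against the table as a whole. CPM values lower in both overloaded libraries than in either sham library were found in 35.4% of the tested genes, and values higher in both were found in 37.5%, which makes 72.9% in either direction. In UMIs per tube, without any scaling, the picture was less even. Only 7.9% of tested genes, 571 in number, had fewer UMIs in both overloaded tubes than in either sham tube, and Mt1 and Mt2 were among them. The edgeR fit of these unscaled UMIs called 4.58% of tested genes lower and 62.0% higher. Mtf1 was on the other side, with 72.7% of the tested genes. Since the members were chosen on this contrast, nothing is read from their place in these shares.

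Mt1 and Mt2 together made up 0.492% of all UMIs in sham 1 (95% exact Clopper-Pearson interval 0.466 to 0.520) and 0.526% in sham 2 (0.499 to 0.555). In the overloaded libraries the share was 0.242% (0.227 to 0.258) and 0.206% (0.193 to 0.219). These intervals cover counting error only. Put otherwise, 1 UMI in 203 and 1 in 190 came from the pair in sham, against 1 in 414 and 1 in 485 in overloaded. Per sorted cell, the pair gave 13.3 and 13.7 UMIs in sham and 9.38 and 9.96 in overloaded.

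Within the pair, the balance was close in all libraries. Mt1 made up 46.9% of the pair's UMIs in sham 1 (44.2 to 49.6) and 47.9% in sham 2 (45.2 to 50.6). In overloaded 1 and 2 it was 46.4% (43.1 to 49.6) and 48.6% (45.4 to 51.7). Mt2 was thus the higher of the pair in every library, by a small margin that lay within the counting interval in sham 2 and overloaded 2. The group means were 47.4% ± 0.713 and 47.5% ± 1.57 (n = 2), a difference of 0.068 percentage points that was smaller than either SD. A ratio within a library needs no scaling factor.

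The counts of both genes were high for this assay. By UMIs, Mt2 ranked 2 and 1 among all genes in sham 1 and sham 2, and 9 and 12 in overloaded 1 and 2. Its rank of 1 in sham 2 was shared with mt-Rnr2, at 714 UMIs each. Mt1 ranked 5 and 3 in sham and 16 in both overloaded libraries. With 6 random bases in a UMI, 4096 different UMIs exist, and Mt2 took 17.2% and 17.4% of them in sham and 12.3% and 12.5% in overloaded. A molecule that drew a UMI already used would not have been counted. With counts corrected for this, the differences were -1.47 for Mt1 and -1.48 for Mt2, slightly larger than without the correction. With an assumed capacity of 2000 UMIs in place of 4096, they were -1.53 and -1.54.

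Over the 4 libraries, the 10 genes with the highest mean CPM were mt-Rnr2, mt-Cytb, Actb, mt-Nd4, Mt2, mt-Nd1, Mt1, Hspa1b, Malat1 and Col3a1. Mitochondrial transcripts of this group differed less than the metallothioneins, with -0.68 for mt-Rnr2, -0.61 for mt-Cytb, -0.35 for mt-Nd4 and -0.38 for mt-Nd1 on the log2 CPM scale, all of which turned positive in UMIs per tube and with the offsets for abundance described below. Actb, which encodes cytoplasmic actin, was at 0.07, but at 0.997 in UMIs per tube and 1.35 with offsets for abundance. Malat1, a nuclear noncoding RNA, was at -1.60, and was the 1 gene of the 10 with a more negative difference than Mt1 and Mt2. Without overloaded 2 this order turned, with Malat1 at -1.16, Mt1 at -1.29 and Mt2 at -1.23. Hspa1b, which encodes an inducible heat shock protein, was at -1.11, and Col3a1, a fibrillar collagen gene, at -0.53. In UMIs per tube and with offsets for abundance, Hspa1b was at -0.15 and 0.11, and Col3a1 turned to 0.42 and 0.69.

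Fold changes in this table depended on abundance, and this bears on genes as abundant as Mt1 and Mt2. The median log2 difference was 0.05 over all tested genes and 1.12 in the least abundant decile. That decile, at mean CPM of 17.5 to 33.0, lies near the cutoff of the filter. A gene there can pass through 1 group alone, so nothing is read from the value of 1.12. In the next decile the median was 0.36. It was -0.77 in the most abundant decile, where 87.6% of genes were lower in overloaded. Among the 100 genes with the highest mean CPM, the median was -1.03, 95 lay below 0, and 86 were called lower against 1 called higher. Of these 100 genes, 25 had a more negative difference than Mt1 and 26 than Mt2. When this dependence was removed with offsets fitted per library, to which the abundant genes themselves contribute, the differences of Mt1 and Mt2 shrank to -0.23 and -0.20. How far the differences of the metallothioneins go with abundance alone was not tested further. Mtf1 lay in decile 3, counted from the least abundant, where the median was 0.31.

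**Figure D2:**
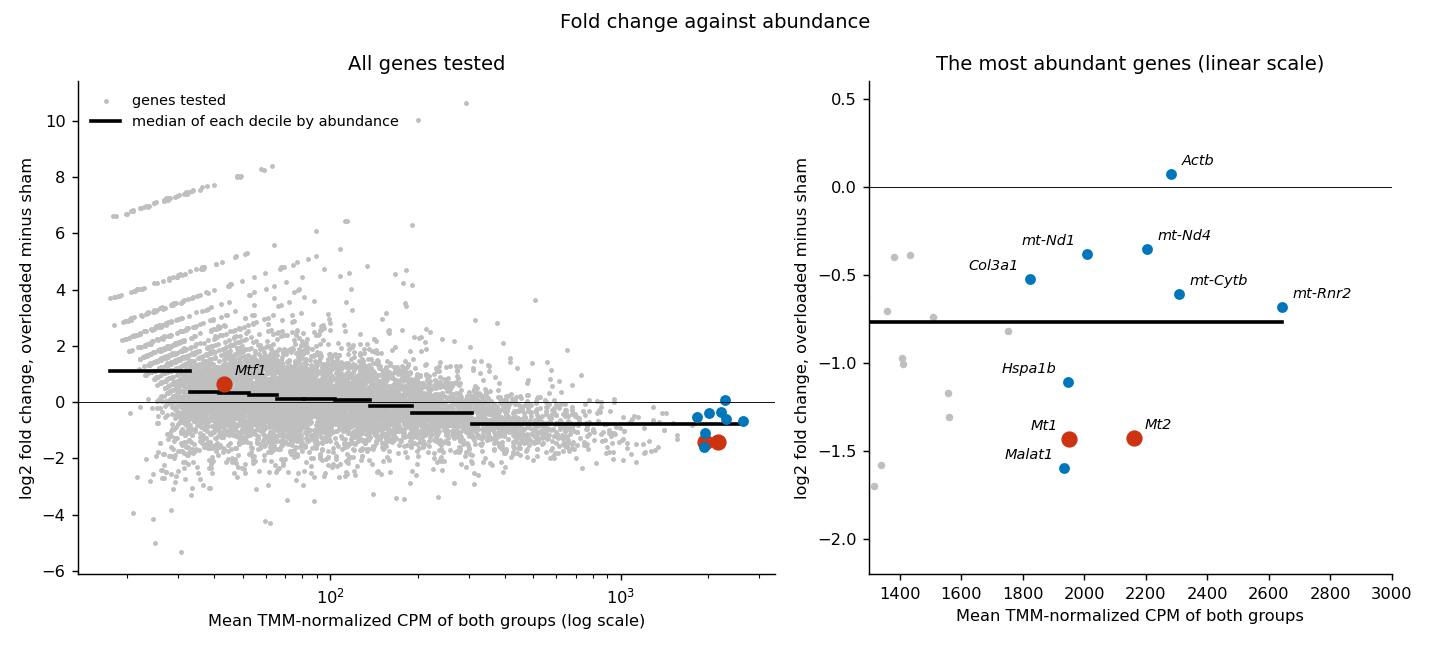
Log2 difference (overloaded minus sham) against mean CPM, for all 7228 tested genes on a log axis (left) and for the most abundant genes on a linear axis (right), with black lines for the median of each decile of genes by abundance. Red points are Mt1, Mt2 and Mtf1 and blue points the other 8 of the 10 most abundant genes, and Mt1 and Mt2 lie below the median of -0.77 of their decile.

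The 3′ ends that CEL-Seq2 reads were compared with all other annotated transcripts. Of the 351 stretches of 50 bases in the last 400 bases of the Mt1 transcript, 0 occurred in the transcripts of another gene on either strand. For Mt2, 99 of 351 (28.2%) were shared with Gm45774, an antisense gene on the minus strand that had 4 and 5 UMIs in sham, 1 in overloaded 1 and 0 in overloaded 2. For Mtf1, 251 of 351 (71.5%) were shared with 1110065P20Rik, which runs in the opposite direction across the 3′ end of Mtf1 and was not analysed here. The strand setting of the counting is not given in the sources used here, so reads of Mtf1 and of this neighbour cannot be told apart.

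Within 100 kb of the metallothionein pair, the annotation has 10 genes, 6 of them protein coding, and 9 were in the table. Besides Mt1 and Mt2, only Nup93 had enough counts to be tested. Nup93, which encodes a scaffold protein of the nuclear pore, had 2 and 4 UMIs in sham and 35 and 52 in overloaded. It rose by 2.85 on the log2 scale (SE 0.47, adjusted p = 1.3e-04 by edgeR's quasi-likelihood test). It passed the filter through the overloaded libraries alone, so only a rise could be called, and the value is a description. The annotation places 2 noncoding genes inside Nup93, each with at most 4 UMIs in a library. Bbs2, a gene of the primary cilium, had 6 and 4 UMIs in sham and 6 and 14 in overloaded and was below the filter.

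The genes with the most similar profiles were taken by the Euclidean distance between log2(CPM + 1) profiles over the 4 libraries, each centred on its mean, among 4713 genes with at least 20 UMIs per library on average. Among the nearest to Mt1 were H2-D1 (distance 0.0575), Ubb (0.0575), Bag3 (0.0585) and Clk1 (0.0834). H2-D1 encodes a class I histocompatibility protein, Ubb encodes ubiquitin, Bag3 a co-chaperone and Clk1 a kinase of splicing factors. Among the nearest to Mt2 were Tgm2 (0.0179), Tra2b (0.0526), Hspa8 (0.0535) and Pmepa1 (0.0792). Tgm2 encodes a transglutaminase, Tra2b a splicing regulator and Hspa8 a constitutive chaperone. Tgm2 had 49 and 50 UMIs in sham and 35 in each overloaded library. Mt1 and Mt2 were at a distance of 0.0997 from each other, and 8 genes lay closer to Mt1 than Mt2 did. The nearest to Mtf1 were Resf1 (0.0936), Tmbim4 (0.0965), Med14 (0.0991), Abhd17a (0.105) and Adgre5 (0.110). With 4 libraries in 2 groups, such a distance mainly orders genes by their group difference.

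The other genes of zinc handling were tested across all 7228 genes at an adjusted p of 0.1 (Benjamini-Hochberg adjustment of edgeR's quasi-likelihood p-values). At this threshold 52.1% of all tested genes were called, 25.8% as higher and 26.3% as lower. Exact permutation over 2 against 2 libraries cannot go below a two-sided p of 0.333. The zinc transporters comprise the ZnT family (Slc30a), which moves zinc out of the cytosol, and the ZIP family (Slc39a), which moves zinc into it. Of 24 transporters listed, 18 were in the table and 12 were tested, and 3 rose and 2 fell, with a median log2 difference of 0.06 over the 12. Of those that rose, Slc30a1 and Slc39a13 passed the filter through the overloaded libraries alone, so only a rise could be called for them. Of those that fell, Slc39a5 passed through the sham libraries alone, so only a fall could be called for it.

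Slc39a14 (ZIP14), a plasma membrane importer of zinc, iron and manganese, was the most abundant transporter, with 184 and 168 UMIs in sham and 112 and 104 in overloaded. Its level was 781 ± 28.2 CPM in sham and 251 ± 57.0 CPM in overloaded (n = 2), and it fell by 1.65 on the log2 scale (SE 0.18, adjusted p = 2.1e-06 by edgeR). The groups did not overlap in UMIs or in CPM, and the difference was -0.70 in UMIs per tube and -0.97 with offsets for abundance, still past the threshold. Slc39a5, another plasma membrane importer, had 13 and 11 UMIs in sham and 9 and 10 in overloaded, a difference of -1.28 (SE 0.41, edgeR adjusted p = 0.017), a call that was lost in UMIs per tube, with DESeq2 and without sham 1 or overloaded 2.

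Slc30a1 (ZnT1), the exporter of zinc at the plasma membrane and a known target of Mtf1, moved in the opposite direction to Mt1 and Mt2. It had 4 and 2 UMIs in sham and 18 and 20 in overloaded, or 13.2 ± 5.91 and 43.7 ± 4.46 CPM (n = 2), and rose by 1.67 (SE 0.51, adjusted p = 0.014 by edgeR). At these counts the call was not firm, since the value was 0.61 (edgeR adjusted p = 0.44) with offsets for abundance and 1.71 (adjusted p = 0.21) with DESeq2. It was 0.18 without sham 2, 0.16 without overloaded 1 and 0.12 without overloaded 2 in edgeR, over log2 values of 1.26 to 1.82, and it ranged from 8.2e-04 to 0.44 over the alternatives in which it was tested, all except the filter of at least 20 counts. The Slc30a1 promoter window held 1 MRE core on the minus strand, TGCACTC at -43 to -37. Of the other reported Mtf1 targets described below, Csrp1 had 2 cores in one of its windows and 0 in the other, and 0 were found in the windows of Selenow, Selenoh and Slc39a10.

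Slc39a13 (ZIP13), which moves zinc out of intracellular vesicles, had 5 and 3 UMIs in sham and 19 and 34 in overloaded and rose by 1.74 (SE 0.48, edgeR adjusted p = 0.0078). Slc39a9 (ZIP9), a transporter of the Golgi and cell surface, had 10 and 8 UMIs in sham and 22 and 52 in overloaded and rose by 1.05 (SE 0.41, edgeR adjusted p = 0.045). Both calls were lost with DESeq2 and without overloaded 2, where the value of Slc39a9 was 0.56, and that of Slc39a9 also without sham 2. The other 7 tested transporters did not pass the threshold and lay between -0.56 (Slc30a5) and 0.29 (Slc30a4). Among them were Slc39a1 (ZIP1), with 88 and 48 UMIs in sham and 148 and 141 in overloaded, at 0.14, and Slc39a10, a gene that Mtf1 is known to repress, at -0.05.

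**Figure D3:**
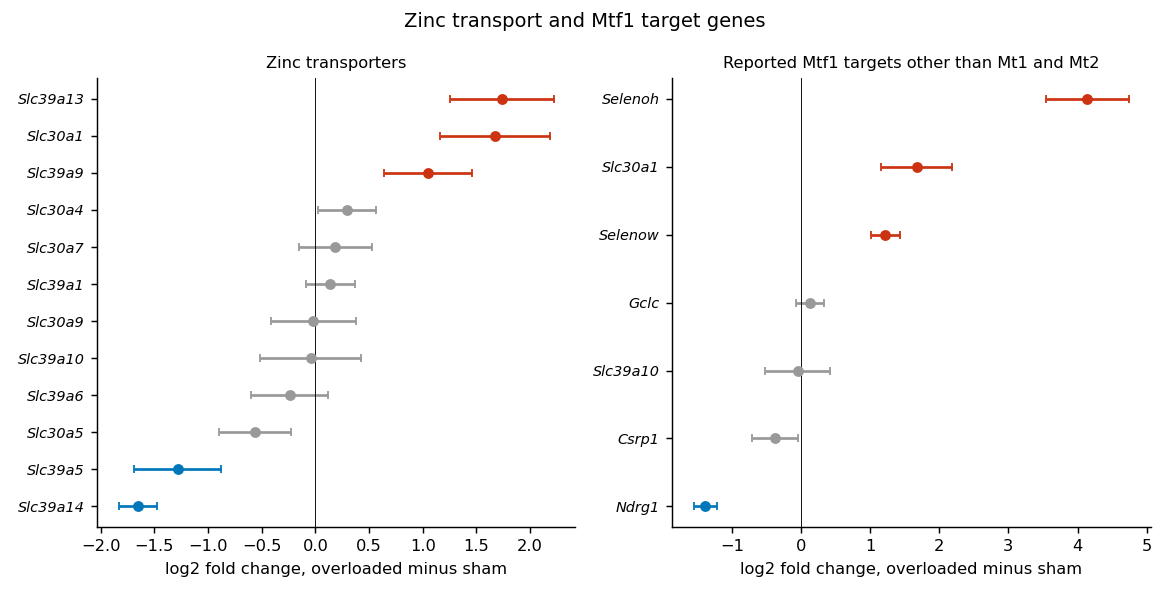
Log2 difference (overloaded minus sham, with SE) of the tested zinc transporters and of the other reported Mtf1 targets, with genes past an adjusted p of 0.1 in red where higher and in blue where lower, and the others in grey. Slc39a14 at -1.65 and Ndrg1 at -1.38 are the lowest of their lists, and Slc39a13 at 1.74 and Selenoh the highest.

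Of 7 other genes reported as Mtf1 targets, all were tested, and 3 rose and 1 fell, with a median of 0.13. Ndrg1, a gene of the stress response and of differentiation, had 179 and 160 UMIs in sham and 112 and 141 in overloaded. Its level was 752 ± 38.4 CPM in sham and 288 ± 4.02 CPM in overloaded (n = 2), and it fell by 1.38 (SE 0.16, edgeR adjusted p = 4.6e-06), close to the values of Mt1 and Mt2. It was at -0.42 in UMIs per tube, and with offsets for abundance at -0.67, further from 0 than Mt1 and Mt2.

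The genes that rose were Slc30a1, described above, and 2 selenoprotein genes. Selenow, which encodes a small selenoprotein abundant in muscle, had 24 and 29 UMIs in sham and 106 and 135 in overloaded. It rose from 118 ± 19.0 to 274 ± 1.58 CPM (n = 2), by 1.22 on the log2 scale (SE 0.21, edgeR adjusted p = 2.3e-04). Selenoh, which encodes a nucleolar selenoprotein, had 1 UMI in each sham library and 36 and 38 in the overloaded libraries (edgeR adjusted p = 4.2e-05). It passed the filter through the overloaded libraries alone, so only a rise could be called. With a sum of 2 UMIs in sham, the ratio of its CPM was 19.0, with an exact interval of 5.07 to 160 for counting error. Gclc, which encodes the catalytic subunit of glutamate-cysteine ligase, was at 0.13, and Csrp1, which encodes a LIM domain protein, at -0.37. The called targets, 3 higher and 1 lower of 7, went in both directions, and among all tested genes 25.8% were called higher and 26.3% lower. Since Slc30a1 and Selenoh could only be called higher, nothing is read from the 3 higher calls against these shares. The calls for Ndrg1, Selenow and Selenoh held under every alternative in the closing section.

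Metallothioneins also bind copper and scavenge oxidants, and the genes of these roles were counted next. Of 18 glutathione and antioxidant genes, 14 were tested, and 3 rose and 7 fell, against 25.8% and 26.3% of all tested genes. Their median was -0.36. Txnrd1, which encodes cytosolic thioredoxin reductase, went from 839 ± 14.0 to 319 ± 9.92 CPM and fell by 1.39 (edgeR adjusted p = 3.8e-06). Srxn1, which encodes sulfiredoxin, went from 623 ± 73.5 to 176 ± 6.10 CPM and fell by 1.82 (edgeR adjusted p = 6.6e-07). In UMIs per tube and with offsets for abundance, Txnrd1 was at -0.43 and -0.63 and Srxn1 at -0.86 and -1.28, still past the threshold. Hmox1, which encodes heme oxygenase 1, went from 927 ± 67.0 to 458 ± 61.3 CPM and fell by 1.02 (edgeR adjusted p = 1.1e-04), while its UMIs per tube were 202 and 215 in sham and 193 and 205 in overloaded and overlapped. Its call was lost with offsets for abundance, at -0.17 (edgeR adjusted p = 0.34), and in UMIs per tube, at -0.07 (edgeR adjusted p = 0.73). The 3 that rose, named after their values were seen, were Gpx1 (1.83), Gsr (2.22) and Keap1 (1.30). They encode a glutathione peroxidase, glutathione reductase and the inhibitor of the antioxidant factor Nrf2. Gsr passed the filter through the overloaded libraries alone, so only a rise could be called for it. The balance of this list turned with the scaling. With library sizes alone 6 were higher and 4 lower, against 37.3% and 18.7% of all tested genes. With offsets for abundance 5 were higher and 3 lower, against 20.9% and 21.7% of all tested genes, with a median of 0.23. In UMIs per tube, 10 were higher and 2 lower, against 62.0% and 4.58% of all tested genes, with a median of 0.59.

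Of 16 genes of copper and iron handling, 10 were tested, and 4 rose and 3 fell, against 25.8% and 26.3% of all tested genes. The median of the 10 was 0.24. In UMIs per tube 6 were higher and 0 lower, with a median of 1.20, against 62.0% and 4.58% of all tested genes. With library sizes alone 4 were higher and 1 lower, against 37.3% and 18.7%. Cox17, a copper chaperone of cytochrome c oxidase, had 24 and 20 UMIs in sham and 96 and 108 in overloaded and rose by 1.25 (edgeR adjusted p = 3.4e-04). Fth1, which encodes the heavy chain of ferritin, had 296 and 286 UMIs in sham and 288 and 311 in overloaded. In CPM it went from 1292 ± 5.06 to 689 ± 84.2 and fell by 0.91 (edgeR adjusted p = 2.2e-04), a difference that turned to 0.042 in UMIs per tube and to 0.081 with offsets for abundance.

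Of 15 genes known to respond to glucocorticoids, which also induce metallothioneins, 14 were tested, and 2 rose and 10 fell, against 25.8% and 26.3% of all tested genes, with a median of -0.82. In UMIs per tube 3 were higher and 3 lower, against 62.0% and 4.58% of all tested genes, with a median of 0.14, and with offsets for abundance 2 were higher and 7 lower, against 20.9% and 21.7%, with a median of -0.53. Klf9, a transcription factor gene, had 268 and 243 UMIs in sham and 141 and 212 in overloaded and fell by 1.50 (edgeR adjusted p = 1.8e-06). Cebpd, another transcription factor gene, had 234 and 228 UMIs in sham and 148 and 138 in overloaded and fell by 1.64 (edgeR adjusted p = 1.8e-06). Klf9 was at -0.53 in UMIs per tube and -0.63 with offsets for abundance, and in the same order Cebpd was at -0.69 and -0.84, still past the threshold. Sgk1, a kinase gene, fell by 0.53 (edgeR adjusted p = 0.012) in CPM but was at 0.42 in UMIs per tube and 0.35 with offsets for abundance. The 2 that rose, named after their values were seen, were Trim63, with 1 and 0 UMIs in sham and 14 and 29 in overloaded, and Fbxo32, with 11 and 2 in sham and 36 and 53 in overloaded. Both encode ubiquitin ligases of muscle atrophy. Trim63 passed the filter through the overloaded libraries alone, so only a rise could be called for it. The myofiber markers given above were also higher in overloaded, and their part in these values was not tested.

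The metallothioneins are also among genes known to be induced while cells are freed from tissue. Of 19 immediate early and heat shock genes of this kind, 19 were tested and 19 fell, with a median of -1.53. Among all tested genes, 26.3% were called lower and 25.8% higher. All 19 lay in the most abundant decile, where 87.6% of genes were lower in overloaded, called or not. Fosb, Jund and Junb, genes of the AP-1 factor, fell, with log2 differences of -2.18, -1.99 and -1.70 (edgeR adjusted p = 1.2e-07, 3.0e-07 and 6.7e-07). Junb had 445 and 460 UMIs in sham and 261 and 277 in overloaded. Hspa1b, whose reads may be split with its near-identical copy Hspa1a, fell by 1.11 (edgeR adjusted p = 3.3e-05) in CPM, and was at 0.11 with offsets for abundance, while its call was lost in UMIs per tube (edgeR adjusted p = 0.27). Fosb was at -1.21 in UMIs per tube and -1.32 with offsets, and in the same order Jund was at -1.01 and -1.18 and Junb at -0.75 and -0.65, still past the threshold. With those offsets 15 of the 19 were lower and 2 higher at the threshold, against 21.7% and 20.9% of all tested genes, and in UMIs per tube 12 were lower and 1 higher, against 4.58% and 62.0%. The differences of Mt1 and Mt2, -1.43 each, lay near the median of this list with TMM, but not with offsets for abundance, where the median was -0.67 and Mt1 and Mt2 were at -0.23 and -0.20. Whether the dissociation of the muscle contributed to either was not tested.

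**Figure D4:**
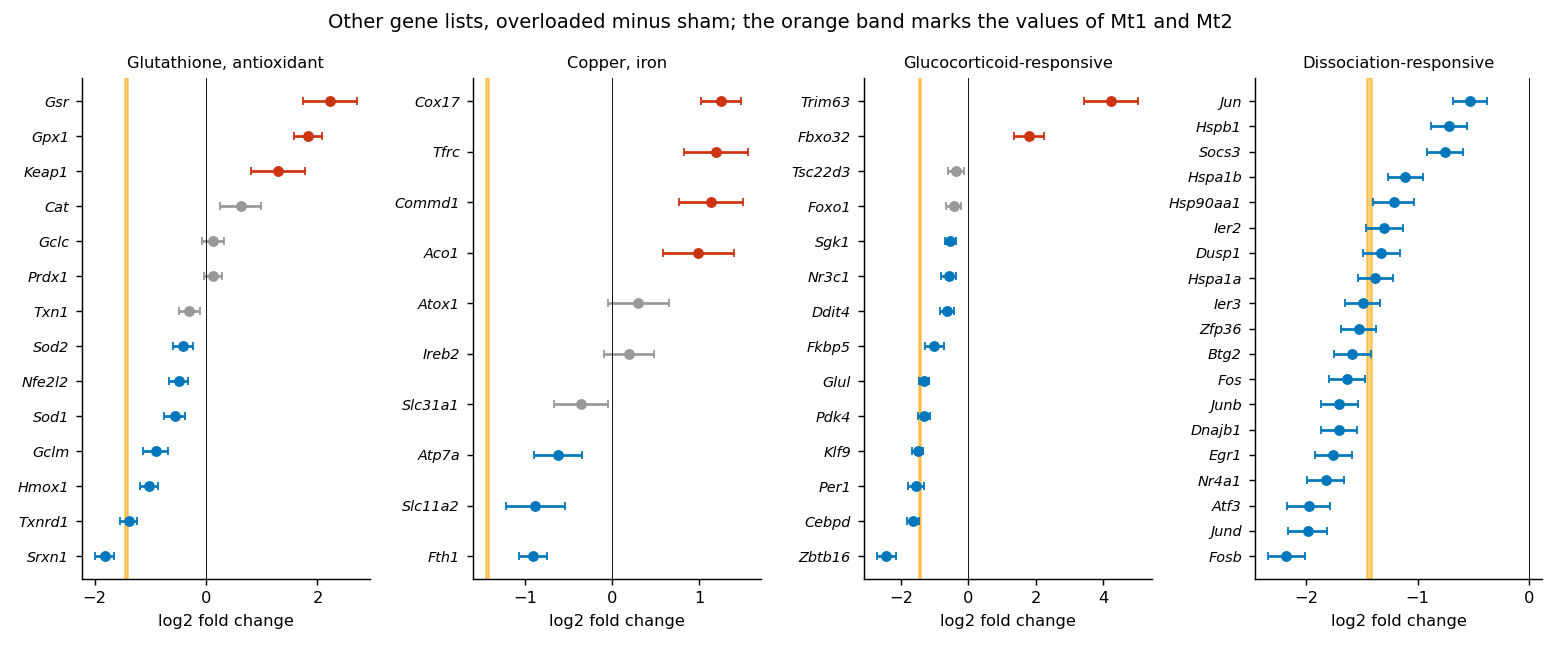
Log2 difference (overloaded minus sham, with SE) of the tested antioxidant, copper and iron, glucocorticoid-responsive and dissociation-responsive genes, coloured red where higher and blue where lower past an adjusted p of 0.1 and grey otherwise. The orange band marks the values of Mt1 and Mt2, and all 19 dissociation-responsive genes lie below 0.

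Markers of other cells that sorted tubes could hold moved along with these differences in part. The leukocyte list had at most 110 UMIs in a library, led by Lyz2, against 938 to 1371 UMIs of Mt1 and Mt2 together. The fibro-adipogenic list, led by Col3a1, summed to 1038 and 955 UMIs in sham and 1071 and 1294 in overloaded, while Pdgfra, which defines these cells, had 2 UMIs in overloaded 1 and 0 in the other libraries. Dcn, Dpt and Gsn of this list were well counted in every library, with at least 82 UMIs. The mural list, led by Acta2, summed to 177 and 159 UMIs in sham and 467 and 663 in overloaded, and the endothelial list, led by Tek, to 27 and 20 against 40 and 56. The erythrocyte list, led by Hbb-bs, differed between libraries of the same group, with 118 and 4 UMIs in sham and 17 and 231 in overloaded. The 2 tested leukocyte markers, Lyz2 and Cd74, were called higher, but had 0 UMIs in both sham libraries. They passed the filter through the overloaded libraries alone, so only a rise could be called, as for Ly6a (1 and 0 UMIs in sham). At the threshold above, 25.8% of all tested genes were called higher and 26.3% lower. Of the other tested markers, 5 of 5 myofiber markers rose, as did 1 of 5 fibro-adipogenic markers (Ly6a) and 2 of 4 mural markers. Of the rest, 4 fibro-adipogenic, 1 mural and 1 of 2 endothelial markers fell. The endothelial marker that fell, Tek, passed the filter through the sham libraries alone, so only a fall could be called for it. The 3 tested erythrocyte markers had adjusted p of 0.47 to 0.54 in edgeR. Among the 10 satellite cell markers, led by Sdc4, 2 rose and 5 fell, with a median of -0.56. The part of other cells in the metallothionein values was not tested.

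The size of the difference depended on what the counts were set against. With TMM factors it was -1.43 for both Mt1 and Mt2, with library sizes alone -1.16 for both, and in UMIs per tube of 100 cells -0.48 for both. For Mtf1 the values were 0.65, 0.93 and 1.60. With 1 library left out, the difference ranged from -1.53 to -1.29 for Mt1, from -1.58 to -1.23 for Mt2 and from 0.38 to 0.91 for Mtf1. Under all alternatives tried, Mt1 and Mt2 remained lower and Mtf1 higher in overloaded.

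**Figure D5:**
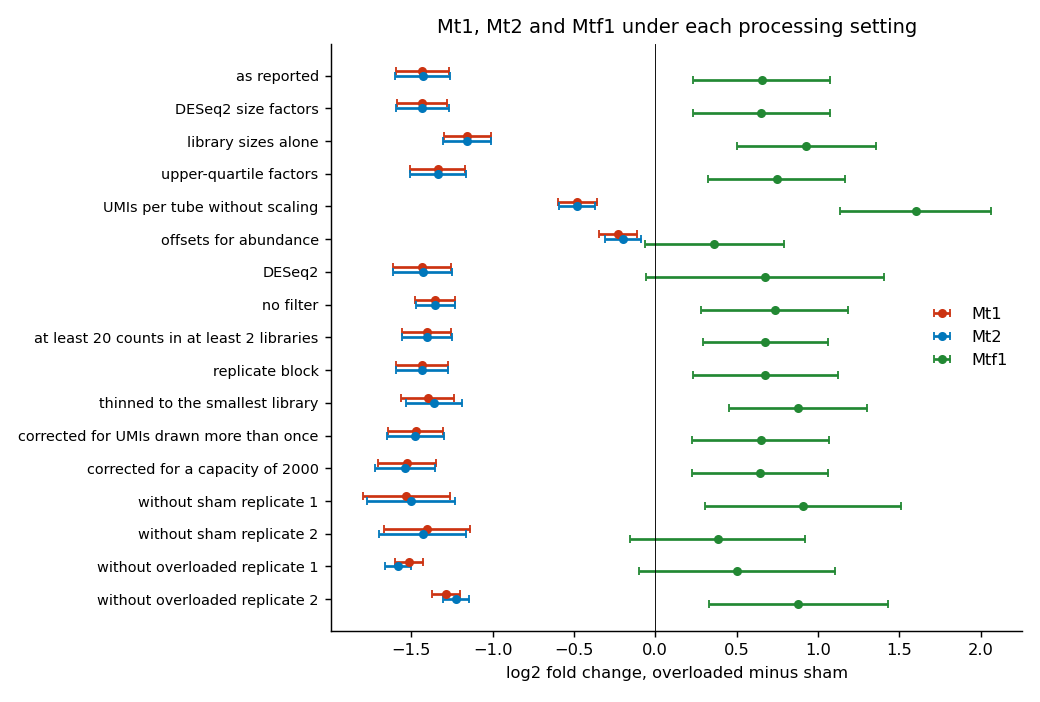
Log2 difference (overloaded minus sham) of Mt1, Mt2 and Mtf1 under each way of processing the counts. Mt1 and Mt2 stay close to each other and below 0, nearest to it with offsets for abundance (-0.23 and -0.20), while Mtf1 stays above 0. Bars are the SE.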

How the data were processed

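MuSCs of sham and overloaded plantaris muscle were compared in 2 libraries each. The deposited values are UMI counts per gene: per the labels and the study's methods, the authors used UMI-tools 1.0.0 (6 random bases, directional method), HISAT2 2.1.0 with GRCm38 and featureCounts 1.6.4. The annotation release and strand setting are not given in the sources used here. All columns of the count table were mapped to samples.

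The counts were filtered by filterByExpr (minimum count 10, minimum total 15), scaled by TMM and fitted by glmQLFit and glmQLFTest in edgeR 4.0.16 (R 4.3.3), with surgery as the factor, an adjusted p of 0.1 (Benjamini-Hochberg over 7228 genes) and a common biological coefficient of variation of 9.50%. DESeq2 1.42.0 was an alternative, as were other scalings, filters, UMI corrections and omitted libraries. Steps were tested on simulated data. At this depth 3 UMIs in a library equal 6.08 to 13.6 CPM.

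All 19353 gene IDs matched GENCODE M21. Promoters of Mt1, Mt2, Mtf1 and other targets came from RefSeq, without Gclc and Ndrg1. The members and all lists (zinc transporters, Mtf1 targets, antioxidant, copper and iron, glucocorticoid and dissociation genes, cell markers) were chosen with earlier results of these data known. Named were list members of the first 2 lists past the threshold, the 2 most abundant and the 2 with the smallest adjusted p of the next 4, the 10 most abundant genes, neighbours within 100 kb, the 5 nearest profiles and leading markers. A gene among the nearest profiles is not reported here.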

Additional observations from a re-analysis of the deposited data

How the results depend on the processing

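Mt1, Mt2 and Mtf1 kept their direction in all alternatives. Mt1 and Mt2 moved by more than the SDs of both groups combined on the log2 scale with library sizes alone (-1.16 and -1.16), in UMIs per tube (-0.48 and -0.48, with 1.60 for Mtf1) and with offsets for abundance (-0.23 and -0.20), and over omitted libraries Mt1 spanned -1.53 to -1.29, Mt2 -1.58 to -1.23 and Mtf1 0.38 to 0.91. The share of Mt1 in the pair differed between groups by -0.46 to 0.30 percentage points under the other alternatives and by -1.04 to 1.18 with 1 library omitted. DESeq2 called 1811 genes (762 higher, 1049 lower) against 3766 (1868 higher, 1898 lower) with edgeR, and the cause was not tested. Higher calls were 49.6% of edgeR's calls, 66.6% with library sizes alone, 93.1% in UMIs per tube, and 57.6% without a filter, with the median of all genes at 0.33, 1.01 and 0.30 (0.15 with upper-quartile factors, 0.05 with TMM). Zinc transporters called were 5, but 8 in UMIs per tube (7 higher, 1 lower), where 62.0% of all tested genes were called higher and 4.58% lower. They were 1 with DESeq2 and 2 with at least 20 counts in 2 libraries, where fewer genes were tested. Antioxidant genes called were 6 with DESeq2, against 10, and copper and iron genes 2, against 7, and 4 after thinning or without sham 2. Glucocorticoid-responsive genes called were 6 in UMIs per tube (3 higher, 3 lower), against 12. Reversed in UMIs per tube were Fth1 (0.042), Sgk1 (0.42), mt-Rnr2 (0.28), mt-Cytb (0.35), mt-Nd4 (0.60), mt-Nd1 (0.57) and Col3a1 (0.42), and with offsets Fth1 (0.081), Sgk1 (0.35), Hspa1b (0.11), mt-Rnr2 (0.68), mt-Cytb (0.70), mt-Nd4 (0.94), mt-Nd1 (0.87) and Col3a1 (0.69). Actb was at -0.27 without overloaded 1 and 0.41 without overloaded 2. Whether same-numbered libraries share a mouse is not stated. Their deviations from the group means were correlated at -0.03, and with the replicate block 3670 genes were called. At 6 to 23 UMIs, depth limits Mtf1.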
